A study of Mus musculus with 8 samples.

Results

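Skin tissue collected 2 d after wax plucking was compared with shaved skin that had not been plucked a second time, using 2 of the 8 arrays of the series, 1 array for each group. Both samples came from female C57BL/6 mice whose back follicles had been brought into step by an earlier round of wax stripping. The labels give an age of 10 weeks for both samples, while the treatment protocol gives 7 to 8 weeks and follicles in telogen, the resting phase. The first sample was taken 2 d after the second plucking and the other immediately after shaving. By its label the material is adipose cells, whereas the series' design names the surroundings of the follicles, with adipose and dermal tissue. The number of mice behind a sample is not given in the labels. Of the plucked samples set beside the pair, those of 12 h, 1 d and 4 d are labelled 10 weeks. Those of 6 d and 10 d are labelled 11 weeks, and that of 50 d is labelled 17 weeks. Genes are compared as normalised intensities, for which the 75th percentile of each array is set to 100, and as log2 differences, 2 d minus shaved. With 1 array in each group there was no test, and a gene was counted as higher or lower when it differed by at least 2-fold.

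Plucking removes the club hair from a resting follicle and wounds it, and the follicle then enters a new growth phase (anagen). In anagen, matrix cells at the base of the follicle make the hair shaft, built from hair keratins and keratin-associated proteins, and the inner root sheath around it. Type I interferon acts through a complex of transcription factors on interferon-stimulated response elements in promoters and induces a large set of antiviral genes. Dermal macrophages express many of these genes, and macrophages also take part in the response of skin to plucking and wounding.

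Of 28776 genes well above background on the brighter array of the pair, 764 reached a 2-fold increase at 2 d (2.65%) and 1002 a 2-fold decrease (3.48%). Of these, 226 of the higher genes were not well above background on the shaved array, and 231 of the lower genes were not so on the 2 d array. They were counted by their signals, so the bound of such a gene can lie below 2-fold. The shares of 2.65% and 3.48% are the background for the counts of gene groups below. Against the 50 d array in place of the shaved one, 1053 genes were 2-fold or more above it (3.69%) and 623 below it (2.18%). The 50 d sample is labelled 17 weeks, so age differs as well in every comparison with it. The median log2 difference of all 28776 genes was 0.02, and the levels on the arrays had a Pearson correlation of 0.982 across genes, which are not independent replicates. The share of spots well above background was 76.4% on the 2 d array and 75.3% on the shaved array. Probes spotted 10 times on an array had a median SD of 0.069 (2 d) and 0.065 (shaved) on the log2 scale. Different probes of a gene gave log2 differences with a median SD of 0.153. These figures hold no variation between mice. Among genes measured on both arrays, 51 exceeded an 8-fold increase and 8 an 8-fold decrease at 2 d.

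**Figure D1:**
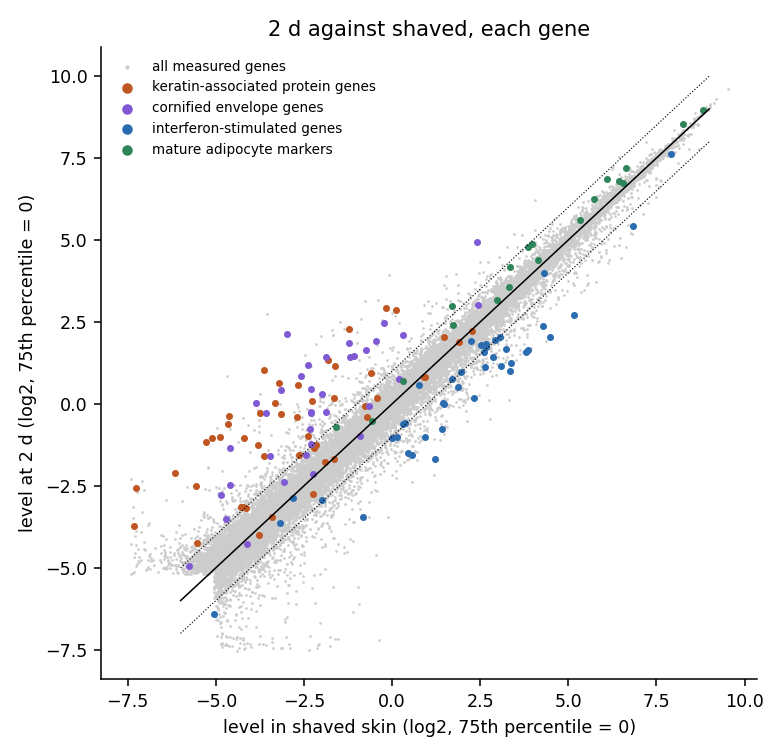
Level of each measured gene at 2 d (vertical axis) against its level in shaved skin (horizontal axis), both log2 with the array's 75th percentile at 0, and the solid line marks equal levels and the dotted lines 2-fold differences. Keratin-associated protein and cornified envelope genes lay mostly above the upper dotted line, 27 of 42 interferon-stimulated genes lay below the lower one, and 18 of 19 mature adipocyte genes lay between the dotted lines.

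The labelled tissue was checked against its markers. All 19 mature adipocyte genes were measured, and the adipocyte hormone adiponectin (Adipoq) had an intensity of 14654 at 2 d and 9950 in shaved skin. Skeletal muscle transcripts were bright on both arrays, and the fast myosin heavy chain Myh4 had an intensity of 37506 at 2 d and 38191 in shaved skin. Keratinocyte, hair follicle, sebaceous gland, melanocyte and blood cell transcripts were measured as well. In bulk samples fewer cells of a type and less RNA per cell cannot be told apart.

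Interferon-stimulated genes were lower at 2 d. Of 42 genes of this group, all of them measured, 27 were at least 2-fold lower and 0 were at least 2-fold higher, with a median log2 difference of -1.38. The 2 d level was the lowest of the 8 arrays for 18 of the 42, against 4.81% of all measured genes. Promoters of 4 of the genes are shown because they carry the element through which interferon acts. They are the genes with the largest decreases whose window from 250 bases before to 50 bases after the gene start held GAAA, any 2 bases and GAAA again, on either strand. The windows are from RefSeq (GRCm38.p6), run 5′ to 3′ on the gene's strand, and capitals mark the matches, which overlap in Bst2 and Oas1a.
Oas3, chr5:120777610-120777909, minus strand: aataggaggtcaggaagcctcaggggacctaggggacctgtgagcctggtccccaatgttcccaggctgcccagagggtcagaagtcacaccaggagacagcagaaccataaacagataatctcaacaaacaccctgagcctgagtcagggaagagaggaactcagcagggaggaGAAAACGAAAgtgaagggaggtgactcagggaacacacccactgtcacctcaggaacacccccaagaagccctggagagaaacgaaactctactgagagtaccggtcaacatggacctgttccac
Bst2, chr8:71537423-71537722, minus strand: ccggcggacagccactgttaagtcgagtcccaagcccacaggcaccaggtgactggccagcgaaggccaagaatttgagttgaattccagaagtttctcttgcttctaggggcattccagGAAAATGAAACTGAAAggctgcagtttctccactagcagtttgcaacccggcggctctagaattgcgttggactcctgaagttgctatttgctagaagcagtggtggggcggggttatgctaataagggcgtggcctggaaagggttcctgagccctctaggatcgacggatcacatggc
Oas1a, chr5:120907476-120907775, minus strand: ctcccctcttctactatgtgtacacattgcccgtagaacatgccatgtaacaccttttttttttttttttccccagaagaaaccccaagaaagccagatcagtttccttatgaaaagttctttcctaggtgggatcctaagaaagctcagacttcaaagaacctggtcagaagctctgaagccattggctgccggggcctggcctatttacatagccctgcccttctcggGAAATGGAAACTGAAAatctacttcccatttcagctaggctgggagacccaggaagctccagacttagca
Ifit3, chr19:34583279-34583578, plus strand: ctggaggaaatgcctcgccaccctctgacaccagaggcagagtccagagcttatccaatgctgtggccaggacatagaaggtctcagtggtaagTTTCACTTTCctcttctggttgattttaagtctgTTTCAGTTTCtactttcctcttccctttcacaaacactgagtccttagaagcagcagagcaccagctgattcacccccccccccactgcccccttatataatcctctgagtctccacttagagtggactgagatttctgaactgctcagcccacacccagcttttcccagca
Such a match was present in 19 of the 32 interferon-stimulated genes that had a promoter entry (59.4%), against 3.99% of 27025 genes with an entry. The median log2 difference was -1.43 for these 19 and -1.14 for the 13 without a match in the window. Of 19 macrophage and monocyte genes with an entry, 2 held a match.

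Among the sensors and signalling genes of the interferon group, 4 of 10 were lower. Irf7, the transcription factor that amplifies the type I interferon response, had an intensity of 31.0 at 2 d and 234 in shaved skin, a 7.53-fold lower value. Dhx58, a cytosolic RNA sensor of the RIG-I family, was at 59.4 at 2 d and 266 in shaved skin. Zbp1, a sensor of Z-form nucleic acid, was at 112 at 2 d and 500 in shaved skin, and Stat2 was at 317 at 2 d and 935 in shaved skin. The endosomal RNA sensor Tlr3, of the same role, was at 13.7 at 2 d and 14.2 in shaved skin, a log2 difference of -0.05.

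All 6 genes of the OAS family, whose active members make the 2-5A that switches on RNase L, were at least 2-fold lower. Oas1a was at 414 at 2 d and 2230 in shaved skin, Oas2 at 301 at 2 d and 1404 in shaved skin, and Oasl1 at 199 at 2 d and 1012 in shaved skin. The 2 d array was the lowest of the 8 for 5 of the 6, against 4.81% of all measured genes. Among 11 genes that block viral entry, translation or release, 8 were lower. They include Bst2 (tetherin, which holds budding virus at the cell surface), at 654 at 2 d and 3584 in shaved skin. Ifit3 was at 240 at 2 d and 1039 in shaved skin, Mx1 at 35.3 at 2 d and 136 in shaved skin, and Ifit1 at 50.0 at 2 d and 191 in shaved skin. Rsad2 (viperin) of the same role was at 148 at 2 d and 170 in shaved skin. Isg15, a ubiquitin-like modifier, was at 221 at 2 d and 844 in shaved skin. Ifi27l2a, another induced gene, was at 19550 at 2 d and 24081 in shaved skin.

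Over the whole course the interferon genes were high on the shaved array, and 27 of the 42 had their highest level there, against 12.5% of all measured genes. Isg15 was at 971 at 12 h and 857 at 1 d, reached 221 at 2 d and 243 at 4 d, and stood at 944 at 6 d, then 398 at 10 d, with 528 at 50 d. Oas1a was at 1176 at 12 h and 1278 at 1 d, reached 414 at 2 d and 495 at 4 d, and stood at 1950 at 6 d, then 1421 at 10 d, with 871 at 50 d. Low values at 2 d and 4 d thus stood between higher ones at 1 d and 6 d for both genes. Against the shaved array, which all these times share as their control, the median log2 difference of the 42 genes was -0.58 at 1 d, -1.38 at 2 d and -1.51 at 4 d. With the 50 d array in place of the shaved one, the median at 2 d was -0.53, and 38 of the 42 genes were lower at 2 d than at 50 d.

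Macrophage and monocyte markers were lower by a similar amount: 18 of 28 measured genes were at least 2-fold lower and 0 higher, with a median log2 difference of -1.44. Their summed intensity was 44283 at 2 d and 100436 in shaved skin, and none of the 28 was without signal on either array. Siglec1, a sialic acid-binding receptor of macrophages that interferon also induces, was at 72.9 at 2 d and 679 in shaved skin. Its probes disagreed in size: the brightest gave a log2 difference of -3.22 and the other -1.18. The 60-base probes are printed to show that they read different parts of the gene (mm9 positions).
Siglec1 probe, chr2:130895093-130895152, minus strand: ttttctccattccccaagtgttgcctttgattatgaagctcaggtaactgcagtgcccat
Siglec1 probe, chr2:130909693-130909752, minus strand: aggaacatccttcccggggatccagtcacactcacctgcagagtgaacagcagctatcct
Among the other surface receptors, Fcgr1 (the high-affinity IgG receptor) was at 22.4 at 2 d and 99.6 in shaved skin, and the chemokine receptor Ccr2 at 272 at 2 d and 799 in shaved skin. Marco, a scavenger receptor, was at 37.4 at 2 d and 37.3 in shaved skin, and its only high value was 2235 at 12 h. Aif1 (Iba1), an actin-binding protein of macrophages, was at 380 at 2 d and 2077 in shaved skin. The signalling adaptors Tyrobp and Fcer1g were at 1300 and 1986 at 2 d, against 4688 and 7017 in shaved skin. The complement C1q chains, which macrophages make, gave log2 differences of -1.58 (C1qa), -1.51 (C1qb) and -1.48 (C1qc). The lysosomal protein Cd68 was at 2041 at 2 d and 5841 in shaved skin.

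The size of the macrophage difference depended on the array it was set against. Of the 28 genes, 18 had their highest level of the 8 arrays in shaved skin, against 12.5% of all measured genes. At 2 d 5 of the 28 had their lowest level, against 4.81% of all measured genes. Cd68 lay between 1572 and 3608 on the 7 plucked arrays, all below its value in shaved skin. The median log2 difference of the group at 2 d was -0.55 against 12 h, -0.22 against 1 d, 0.19 against 4 d, -0.69 against 6 d, -0.96 against 10 d and -0.15 against 50 d. Whether the macrophage markers have a part in the lower interferon genes was not tested.

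**Figure D2:**
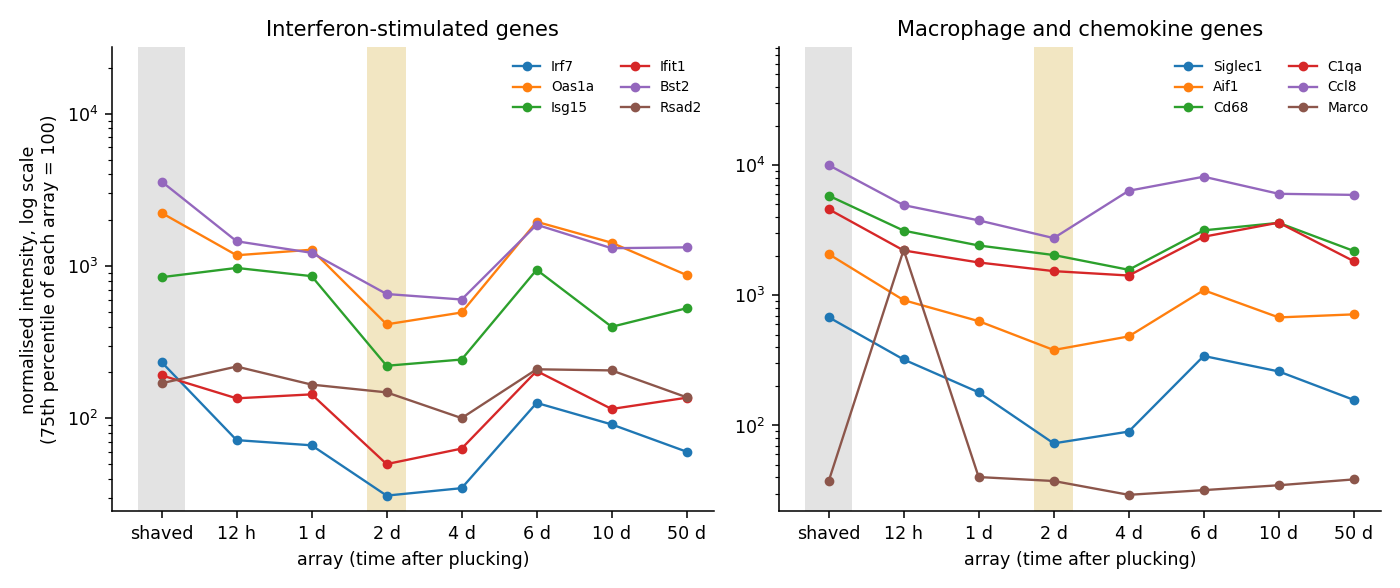
Normalised intensity (log scale, 75th percentile of each array = 100) of 6 interferon-stimulated genes (left) and 6 macrophage or chemokine genes (right) on the 8 arrays, with 1 point for each array, lines that only join the points of a gene, and shading on the shaved and 2 d arrays. Irf7, Oas1a, Isg15 and Ifit1 were low at 2 d and 4 d, while Cd68 and C1qa were highest in shaved skin, and Marco was high only at 12 h.

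Genes of antigen presentation were lower too, in smaller numbers. Of 9 MHC class II genes 4 were lower, with a median log2 difference of -0.99, and H2-DMa, which loads peptides onto class II molecules, was at 218 at 2 d and 720 in shaved skin. Of 8 MHC class I genes 2 were lower (Psmb9 at -1.05 and Tap1 at -1.04), with a median of -0.73. The other probe of Psmb9 gave -0.24. The shaved array was the highest of the 8 for 6 of the 9 class II genes and 6 of the 8 class I genes. Over all measured genes this share was 12.5%. In both groups 0 genes had their lowest level at 2 d, against 4.81% of all measured genes. All 9 and all 8 were higher at 2 d than at 4 d, and 8 of the 9 class II genes were higher at 2 d than at 1 d. Of 10 measured complement genes, Cfp (properdin) and Cfb (factor B), both of the alternative pathway, were at 3653 and 1106 at 2 d, against 11259 and 2841 in shaved skin.

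Chemokines that attract monocytes and eosinophils were among the lower genes. Of 14 measured CC ligands 7 were lower and 0 higher, and of 11 CXC ligands 1 was lower. Ccl24, an eosinophil attractant, was at 301 at 2 d and 1311 in shaved skin. Ccl8 was at 2754 at 2 d and 10022 in shaved skin, Ccl9 at 2417 at 2 d and 6703 in shaved skin, and Ccl2, a main recruiter of monocytes, at 202 at 2 d and 486 in shaved skin. The lower CXC ligand was Cxcl10, an interferon-induced attractant of T cells, at 32.3 at 2 d and 78.3 in shaved skin. None of 9 measured inflammatory cytokines differed by 2-fold, and Il1b was at 32.7 at 2 d and 22.5 in shaved skin. Tnf was at 9.23 at 2 d and 7.45 in shaved skin.

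Other leukocyte groups moved less or in mixed directions. Of 15 neutrophil genes 2 were higher and 4 lower, where 2.65% and 3.48% of all measured genes were so. S100a8 and Lcn2, which keratinocytes also make, were at 194 and 750 at 2 d, against 76.2 and 293 in shaved skin, while Padi4 was at 62.5 at 2 d and 281 in shaved skin. A second probe of Padi4 gave a log2 difference of -1.18 where the brightest gave -2.17. Of 13 measured T and NK cell genes 1 was lower (Cd2, at -1.01) and of 10 B cell genes 0 differed by 2-fold. Of 8 measured dendritic and Langerhans cell genes 0 were higher and 2 lower, against 2.65% and 3.48% of all measured genes. The lower genes were Itgax (CD11c), at 63.2 at 2 d and 187 in shaved skin, and Batf3, at 174 at 2 d and 419 in shaved skin. The other 6 differed by less than 2-fold, and 3 of the 8 log2 differences were above 0, up to 0.73. The median of this group was -0.49. Mast cell genes had a median log2 difference of 0.56, and the proteases Cpa3 and Cma1 and the receptor Kit each had their highest level of the 8 arrays at 2 d. Slfn1, Slfn4, Cd5l and Apol9b, outside these lists, were among the 12 lowest genes measured on both arrays. Slfn1 was at 5.54 at 2 d and 46.6 in shaved skin, and Cd5l, a protein secreted by macrophages, at 69.3 at 2 d and 440 in shaved skin.

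**Figure D3:**
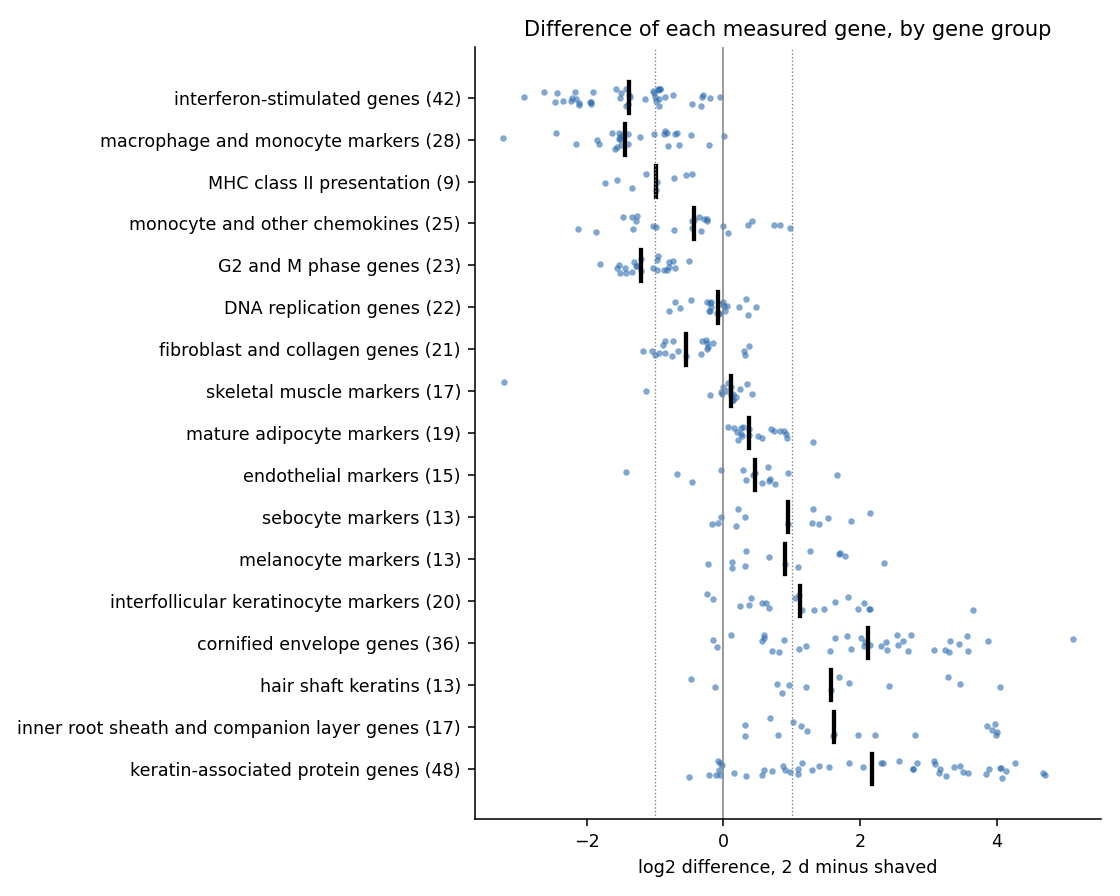
Log2 difference (2 d minus shaved, horizontal axis) of each measured gene in 17 groups, 1 point for each gene, with the number of measured genes in brackets, a black bar at the median and dotted lines at 2-fold. Medians ran from -1.44 in macrophage and monocyte markers to 2.17 in keratin-associated proteins, and that of skeletal muscle markers was 0.11.

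Hair follicle products were higher at 2 d. Of 17 inner root sheath and companion layer genes 13 were at least 2-fold higher and 0 lower, with a median log2 difference of 1.62. Krt71, a keratin of the inner root sheath, was at 1512 at 2 d and 94.2 in shaved skin, 16.0-fold higher. Its relatives Krt27 and Krt25 were at 481 and 283 at 2 d, against 30.4 and 18.0 in shaved skin. Trichohyalin (Tchh), which fills and hardens the inner root sheath, was at 889 at 2 d and 58.4 in shaved skin. All 4 companion layer genes were higher, by 1.02 to 2.22 on the log2 scale, as were 9 of the 13 inner root sheath genes. The courses of these parts differed. Against shaved skin the companion layer median was 1.38 at 1 d, 1.18 at 2 d and -0.09 at 10 d. That of the inner root sheath was 0.39 at 1 d, 1.97 at 2 d and 4.50 at 10 d. Both medians were higher at 4 d than at 2 d. Whether epidermis has a part in the higher companion layer genes was not tested. The transglutaminase Tgm3 was at 255 at 2 d and 205 in shaved skin.

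Of 13 measured hair shaft keratins 8 were higher and 0 lower, with a median of 1.57. Of the type I keratins, Krt33a was at 124 at 2 d and 7.50 in shaved skin, Krt33b at 64.6 at 2 d and 5.85 in shaved skin, and Krt34 at 71.5 at 2 d and 7.35 in shaved skin. Of the type II keratins, Krt86 was at 212 at 2 d and 65.7 in shaved skin.

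Keratin-associated proteins, which cross-link the keratin filaments of the shaft, had the highest median of the larger groups. Of 51 on the array 48 were measured, 32 were at least 2-fold higher and 0 lower, with a median of 2.17, or 1.93 with genes dim on the shaved array set at their bound. Krtap22-2 was at 205 at 2 d and 7.99 in shaved skin, 25.6-fold higher. Krtap9-3 was at 78.0 at 2 d and 4.07 in shaved skin, and Krtap6-2 at 65.6 at 2 d and 3.96 in shaved skin. Where no probe was well above background on the shaved array only a bound can be given: Krtap3-3 was at least 16.7-fold higher, Krtap28-13 at least 15.3-fold and Krtap16-5 (Krtap19-3 in current nomenclature) at least 8.02-fold. These genes form families with similar sequences, so the probes of 3 neighbours on mouse chromosome 11 are printed (mm9).
Krtap3-1 probe, chr11:99427397-99427456, minus strand: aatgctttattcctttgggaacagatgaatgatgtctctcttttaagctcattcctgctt
Krtap3-2 probe, chr11:99417555-99417614, minus strand: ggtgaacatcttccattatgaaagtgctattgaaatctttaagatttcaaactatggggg
Krtap3-3 probe, chr11:99411448-99411507, minus strand: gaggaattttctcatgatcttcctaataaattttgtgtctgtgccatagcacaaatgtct
The longest run of bases shared by any pair of these probes was 7. Their log2 differences were 3.37 (Krtap3-1), 3.88 (Krtap3-2) and 4.08 (Krtap3-3, not well above background in shaved skin).

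The hair genes did not follow 1 course over time. Krt71 was at 970 at 12 h and 140 at 1 d, reached 1512 at 2 d, then 26357 at 4 d and 22558 at 6 d, and stood at 11889 at 10 d, with 574 at 50 d. Krtap6-2 was at 16.8 at 12 h and 5.44 at 1 d, reached 65.6 at 2 d, then 2.98 at 4 d and 282 at 6 d, and stood at 677 at 10 d, with 5.33 at 50 d. Both genes were thus higher at 12 h and 2 d than at 1 d, and at 4 d Krt71 was far above its 2 d level while Krtap6-2 was below it. Among all 48 measured keratin-associated proteins, 41 were higher at 2 d than at 1 d (median log2 difference 1.54, all genes -0.02) and 38 were higher at 2 d than at 4 d (median 0.32, all genes 0.16). Of the 17 inner root sheath and companion layer genes, 3 were higher at 2 d than at 4 d (median -3.23). The 32 keratin-associated proteins at least 2-fold higher than in shaved skin reached a median of 7.65% of their 10 d level at 2 d (range 2.61% to 27.5%). For 21 of the 48 the shaved array was the lowest of the 8, against 8.26% of all measured genes. It was also the lowest for 11 of the 17 inner root sheath and companion layer genes and 7 of the 13 hair shaft keratins. Against the 12 h array the medians at 2 d were 0.56, 0.37 and 0.28 for these 3 groups in turn, and 0.07 for all genes. With the 50 d array as control the median of the keratin-associated proteins at 2 d was 1.61. Hair shaft keratins had a median of 0.94 against 50 d, and Krt35, at 86.3 at 2 d and 16.1 in shaved skin, was at 128 at 50 d.

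**Figure D4:**
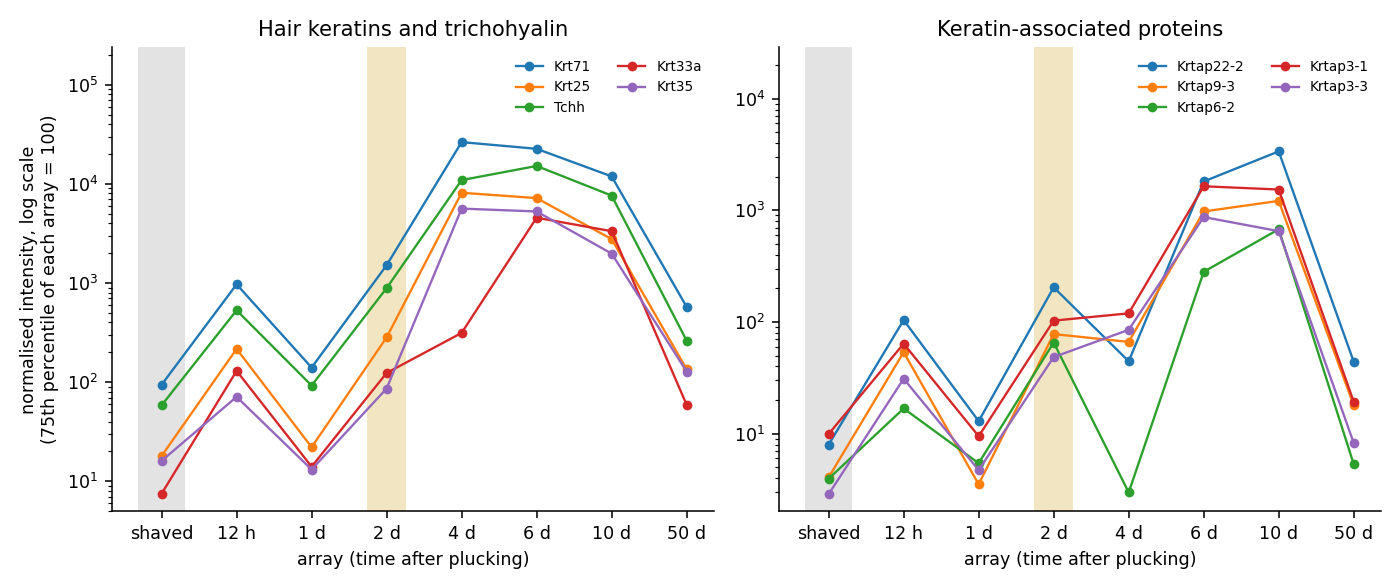
Normalised intensity (log scale, 75th percentile of each array = 100) of inner root sheath genes and shaft keratins (left) and keratin-associated proteins (right) on the 8 arrays, with 1 point for each array, lines that only join the points of a gene, and shading on the shaved and 2 d arrays. All 10 genes were higher at 12 h and at 2 d than in shaved skin. Krt71, Krt25, Tchh, Krt33a, Krt35, Krtap3-1 and Krtap3-3 were higher again at 4 d. Krtap22-2, Krtap9-3 and Krtap6-2 were lower at 4 d than at 2 d, the last at 2.98.

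Transcription factors and signals that direct the growing follicle moved less. Of 13 measured matrix transcription factors 4 were higher. Lef1, a partner of beta-catenin, was at 39.2 at 2 d and 13.1 in shaved skin, Ovol1 at 13.2 at 2 d and 4.55 in shaved skin, Hoxc13, a regulator of hair keratin genes, at 21.4 at 2 d and 7.42 in shaved skin, and the vitamin D receptor Vdr at 132 at 2 d and 59.4 in shaved skin. Of 8 measured hedgehog pathway genes, the targets Ptch1 and Gli1 were higher, at 21.2 and 140 at 2 d, against 9.10 and 63.7 in shaved skin, and the ligand Shh was not well above background. Second probes of Lef1 and Ptch1 gave log2 differences of 0.96 and 0.88, below 2-fold, where the brightest gave 1.58 and 1.22. Of 24 measured WNT genes 3 were higher and 1 lower (12.5% and 4.17%), against 2.65% and 3.48% of all measured genes. Wif1, a secreted WNT inhibitor, was at 49.9 at 2 d and 17.0 in shaved skin, and Sfrp2, another, at 497 at 2 d and 1320 in shaved skin. Wnt3 was at least 1.46-fold higher, a bound below 2-fold. None of 16 measured BMP pathway genes differed by 2-fold, and their median was 0.39.

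Of 13 bulge and hair germ markers 3 were higher: Lhx2 at 104 at 2 d and 30.6 in shaved skin, Tbx1 at 237 at 2 d and 104 in shaved skin, and Krt15 at 1425 at 2 d and 692 in shaved skin. Of 12 measured dermal papilla markers 0 were higher and 1 was lower, against 2.65% and 3.48% of all measured genes. The lower gene, Rspo2, an enhancer of WNT signalling, was not well above background at 2 d. It was at least 1.84-fold lower, a bound below 2-fold. Among EGF receptor ligands, amphiregulin (Areg) was at 22.1 at 2 d and 227 in shaved skin, the lowest of the 8 arrays, while it was at 460 at 1 d. Epiregulin (Ereg) was at least 5.38-fold higher at 2 d than in shaved skin, where it was not well above background, and it was at 79.9 at 1 d. None of 15 immediate early genes differed by 2-fold.

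Pigment cell genes were in part higher. Of 13 measured melanocyte markers 6 were at least 2-fold higher and 0 lower, with a median of 0.90 (0.67 with dim genes at their bound). The melanin enzymes Dct and Tyrp1 were at 209 and 34.4 at 2 d, against 61.0 and 10.6 in shaved skin, and the melanosome proteins Pmel and Mlana at 51.2 and 108 at 2 d, against 15.7 and 45.0 in shaved skin. Tyrosinase (Tyr) was at 32.4 at 2 d and 25.7 in shaved skin, and the lineage regulator Mitf at 611 at 2 d and 560 in shaved skin.

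Epidermal genes were higher at 2 d as well. Of 36 measured cornified envelope genes 27 were at least 2-fold higher and 0 lower, with a median log2 difference of 2.11. Filaggrin (Flg), which bundles keratin in the outer epidermis, was at 439 at 2 d and 12.7 in shaved skin, 34.4-fold higher and its highest level of the 8 arrays. The late envelope proteins Lce1g and Lce1f were at 101 and 230 at 2 d, against 6.93 and 19.2 in shaved skin, and loricrin (Lor) was at 3089 at 2 d and 533 in shaved skin. Of 11 processing enzymes 6 were higher, among them the protease Klk5 at 137 at 2 d and 20.4 in shaved skin. Of 20 interfollicular keratinocyte markers 12 were higher: Krt1 was at 491 at 2 d and 39.0 in shaved skin, Krt10 at 1555 at 2 d and 352 in shaved skin, and the basal keratins Krt14 and Krt5 at 844 and 3554 at 2 d, against 238 and 1287 in shaved skin. The summed intensity of the keratinocyte markers was 14659 at 2 d and 7158 in shaved skin. Whether epidermis in the sample has a part in the other differences of skin genes was not tested.

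The epidermal genes were higher still at 1 d, where the median of the cornified envelope genes against shaved skin was 3.52, and 31 of the 36 were lower at 2 d than at 1 d. Loricrin was at 2742 at 12 h and 11048 at 1 d, reached 3089 at 2 d, then 1861 at 4 d and 946 at 6 d, and stood at 56.9 at 10 d, with 552 at 50 d. Against the 50 d array the median at 2 d was 2.01. Of 12 measured wound keratinocyte genes 8 were higher. The envelope precursors Sprr1b and Sprr2h were at 78.5 and 24.1 at 2 d, against 8.46 and 3.52 in shaved skin, and Krt6b, a keratin of activated keratinocytes, was at 81.3 at 2 d and 27.4 in shaved skin.

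Stefin A genes, which encode cysteine protease inhibitors, held the highest fold difference of all genes with a symbol that were measured on both arrays. Stfa1 was at 181 at 2 d and 3.88 in shaved skin, 46.6-fold higher, and it was at 1152 at 12 h and 104 at 1 d. BC100530 and Stfa3 were at 427 and 225 at 2 d, against 31.3 and 20.3 in shaved skin, and the other 2 of 5 measured genes had log2 differences of 0.71 and 0.80. These genes are near-identical copies, so the signals may be shared between them. Il1f6, an IL-36 cytokine of keratinocytes, was at least 7.01-fold higher. Of 10 measured antimicrobial genes 4 were higher, and the beta-defensin Defb14 was at least 5.62-fold higher. Reg3g, an antibacterial lectin, was at 15.7 at 2 d and 3.54 in shaved skin, and the ribonuclease Rnase6, found in macrophages, was at 27.2 at 2 d and 117 in shaved skin.

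**Figure D5:**
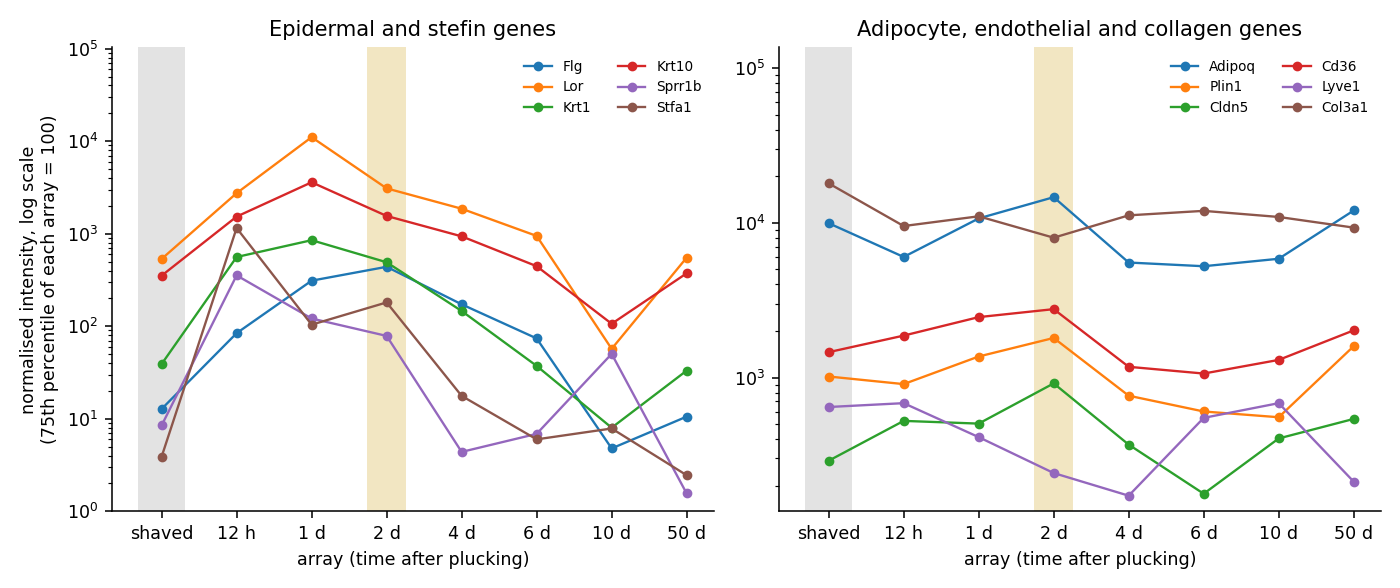
Normalised intensity (log scale, 75th percentile of each array = 100) of epidermal and stefin genes (left) and of adipocyte, endothelial and collagen genes (right) on the 8 arrays, with 1 point for each array, lines that only join the points of a gene, and shading on the shaved and 2 d arrays. Lor was highest at 1 d, Flg at 2 d and Stfa1 at 12 h, and Adipoq, Plin1, Cd36 and Cldn5 had their highest values at 2 d.

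Genes of mitosis were lower at 2 d. Of 23 measured G2 and M phase genes 13 were at least 2-fold lower and 0 higher, with a median of -1.20. Many genes of this phase carry the letters TTTGAA, the cell cycle genes homology region, near their start. The letters were present on either strand of the 300-base window in 14 of 19 G2 and M genes with a promoter entry (73.7%), against 20.2% of all 27025 genes and 3 of 17 DNA replication genes. The median log2 difference was -0.99 for the 14 and -1.26 for the 5 without a match. The windows of the 2 with the largest decreases among those that matched are shown from RefSeq (GRCm38.p6), with the match in capitals.
Cenpa, chr5:30666636-30666935, plus strand: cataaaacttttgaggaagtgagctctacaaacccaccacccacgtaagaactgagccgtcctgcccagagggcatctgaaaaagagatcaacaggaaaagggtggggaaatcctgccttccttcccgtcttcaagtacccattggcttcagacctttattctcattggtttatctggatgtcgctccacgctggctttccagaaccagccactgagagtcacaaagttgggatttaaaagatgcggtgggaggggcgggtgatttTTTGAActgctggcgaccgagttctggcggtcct
Kif23, chr9:61946750-61947049, minus strand: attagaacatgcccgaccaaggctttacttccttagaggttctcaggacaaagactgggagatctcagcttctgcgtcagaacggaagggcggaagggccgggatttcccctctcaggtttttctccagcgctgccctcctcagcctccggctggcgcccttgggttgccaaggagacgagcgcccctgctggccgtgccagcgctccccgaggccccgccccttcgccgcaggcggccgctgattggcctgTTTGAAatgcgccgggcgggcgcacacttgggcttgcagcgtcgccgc
Cenpa, the histone of centromeres, was at 45.2 at 2 d and 158 in shaved skin, and Ccnb2 (cyclin B2) at 69.5 at 2 d and 200 in shaved skin, while Ccnb2 was at 50.6 at 1 d and 555 at 4 d. All 23 genes were higher at 2 d than at 1 d, and all 23 were lower at 2 d than at 4 d. None of 22 DNA replication genes differed by 2-fold from shaved skin, with a median of -0.08. Against the 50 d array the G2 and M median was -0.15.

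Of 19 mature adipocyte markers 1 was at least 2-fold higher at 2 d and 0 lower, against 2.65% and 3.48% of all measured genes. All 19 log2 differences were above 0, as were 53.1% of those of all measured genes, and they ran from 0.07 to 1.31 with a median of 0.38. The median against shaved skin was of similar size at 1 d (0.40) and at 50 d (0.38), and that of 2 d against 50 d was 0.14. The gene past 2-fold was Cidea, a lipid droplet protein also found in sebocytes, at 801 at 2 d and 324 in shaved skin, with 4068 at 50 d. The 2 d array held the highest of the 8 levels for 11 of the 19 (57.9%), against 8.46% of all measured genes. Among them, the droplet coat Plin1 was at 1802 at 2 d and 1015 in shaved skin, the fatty acid transporter Cd36 at 2768 at 2 d and 1459 in shaved skin, and resistin (Retn) at 11520 at 2 d and 6867 in shaved skin.

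Of 20 genes of fatty acid and triglyceride synthesis 2 were higher, the elongase Elovl6 at 1230 at 2 d and 364 in shaved skin and fatty acid synthase (Fasn) at 709 at 2 d and 339 in shaved skin. At 50 d both were above their 2 d level, and against the 50 d array the group's median was -0.52 where it was 0.46 against shaved skin. Of 16 lipolysis and oxidation genes, Pdk4, a brake on glucose oxidation, was at 7396 at 2 d and 1669 in shaved skin, and it lay between 3698 and 8924 on all 7 plucked arrays. Abhd5, an activator of triglyceride lipase, was at 375 at 2 d and 176 in shaved skin. The brown fat uncoupler Ucp1 was at 2.98 at 2 d and 9.83 in shaved skin, and at 3371 at 50 d. In the cholesterol synthesis group of 21 genes, the regulator Srebf2 was lower, with probes at -1.65 and -0.38.

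Sebaceous gland genes were in part higher, with 6 of 13 past 2-fold and a median of 0.95 (0.50 when all probes of a gene were averaged). The elongases Elovl3 and Elovl4 were at 75.1 and 796 at 2 d, against 17.0 and 219 in shaved skin, and Krt79, a keratin of the sebaceous duct, was at 2741 at 2 d and 952 in shaved skin.

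Of 21 measured collagen and fibroblast genes 3 were at least 2-fold lower and 0 higher, with a median of -0.54. Col3a1 was at 8017 at 2 d and 18007 in shaved skin, Col6a3 at 1620 at 2 d and 3246 in shaved skin, and the proteoglycan lumican (Lum) at 2937 at 2 d and 6065 in shaved skin. The shaved array was the highest of the 8 for 11 of the 21, against 12.5% of all measured genes. With the 50 d array as control the group's median was 0.07. Of 16 matrix proteases and inhibitors 2 were higher and 1 lower, against 2.65% and 3.48% of all measured genes. Mmp11 (stromelysin 3) was at 775 at 2 d and 270 in shaved skin, its highest level of the 8 arrays, and Mmp3 (stromelysin 1) was at 667 at 2 d and 1385 in shaved skin.

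Blood vessel genes had a median of 0.61 over 12 genes. For 6 of the 12 the highest level of the 8 arrays was at 2 d, against 8.46% of all measured genes. The tight junction protein Cldn5 was at 917 at 2 d and 290 in shaved skin, and the junction proteins Esam and Cdh5 were at 400 and 524 at 2 d, against 207 and 325 in shaved skin. The lymph vessel receptor Lyve1, which some macrophages also carry, was at 241 at 2 d and 645 in shaved skin, with 212 at 50 d. Of 9 measured erythrocyte genes 3 were higher and 1 lower, against 2.65% and 3.48% of all measured genes. Alas2, the heme enzyme of red cells, was at 626 at 2 d and 283 in shaved skin, and the lower gene was Ahsp (-1.19). The shaved array was the lowest of the 8 for 7 of the 9, against 8.26% of all measured genes. At 2 d 6 of the 9 were lower than at 50 d.

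Of 17 skeletal muscle genes 15 differed by less than 2-fold, and the group's summed intensity was 366426 at 2 d and 352646 in shaved skin. The exceptions were Myh7, the slow myosin heavy chain, at 236 at 2 d and 516 in shaved skin, and Itgb1bp3 (Nmrk2 in current nomenclature), a nicotinamide riboside kinase, at 109 at 2 d and 1006 in shaved skin. The second gene varied over the course, from 19.3 at 10 d to 1335 at 50 d. None of 20 respiratory chain genes differed by 2-fold.

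Of 17 measured clock genes, 1 of 4 in the activator arm was at least 2-fold higher and 3 of 13 in the repressor and output arm were at least 2-fold lower. The activator Arntl (Bmal1) was at 255 at 2 d and 51.7 in shaved skin. The output genes Dbp and Hlf were at 1102 and 76.0 at 2 d, against 4365 and 164 in shaved skin, and Gm129 (the clock repressor Ciart) was at 8.09 at 2 d and 27.8 in shaved skin. On the 7 plucked arrays Arntl lay between 243 and 549 and Dbp between 175 and 1102, so the shaved array stood apart for both. The time of day of sampling is not given in the labels, and it cannot be told apart from plucking. Of 13 glucocorticoid-induced genes 3 were higher, Pdk4, Lcn2 and Zbtb16 (1036 at 2 d, 442 in shaved skin).

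Several of the lowest genes were bright on the shaved array alone. The vomeronasal receptor Vmn1r104 was at 77.9 in shaved skin and not well above background at 2 d, at least 29.0-fold lower. Gpc2 (a glypican) and Prok1 (prokineticin 1) were at least 19.3-fold and 17.3-fold lower, and Smek3-ps at least 8.84-fold lower. A second probe of Prok1 was not well above background on either array of the pair, and the same held for a second probe of Speer2. Speer2, Rerg, Peli3 and Slc6a17 were at 4.40, 4.27, 19.2 and 4.45 at 2 d, against 41.0, 38.5, 147 and 33.0 in shaved skin. On all 7 plucked arrays these 4 genes stayed at or below 5.66 (Speer2), 4.27 (Rerg), 24.0 (Peli3) and 7.48 (Slc6a17). No second sample of shaved skin was measured against which these values could be set.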

How the data were processed

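Total RNA from each sample was labelled with Cy3 and hybridised to a one-colour Agilent array, and all 8 arrays lie on 1 slide. The deposited spot intensity values come, per the file headers, from Agilent Feature Extraction 10.5.1.1, background-subtracted and spatially detrended, with probe positions on mm9. Of the 62976 spots on an array, 59305 are not controls. The log2 of the processed signal minus each array's 75th percentile over these spots was averaged over the spots of a probe, outlier flags were left out, and the probe brightest over the 8 arrays stood for its gene (55668 probes, 34790 gene names). No spot was saturated. A gene counted as measured when that probe was well above background on the brighter array of the pair. Where no probe of a gene was well above background on the dimmer array, the fold is a bound against the lowest signal well above background on that array, or the gene's own signal where that is higher. The precision is limited by 1 array in each group. The procedure was tested on simulated data, in which the changed genes were well above background on all arrays. Changes in dim genes and variation between mice were not covered by that test.

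The members and the 46 gene lists were chosen with earlier results of these data known. The rule for named genes took the 12 highest and 12 lowest named genes with both arrays measured, the 4 highest bounds on either side, and the 5 genes of each list that differed most, and other genes were chosen after their values were seen. Of 810 list entries 5 had no match on the array. Alternatives were quantile normalisation, another centring, normexp (limma 3.58.1, R 4.3.3, offset 50), other probe choices, filters and fold thresholds, and the 50 d array as control. Other steps used Python 3.11.15, pandas 2.3.3 and numpy 2.4.6. Promoters were matched by symbol. A few items are not reported here.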

Additional observations from a re-analysis of the deposited data

Results flagged for a closer look

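G2 and M phase genes stood out because their difference from shaved skin had opposite signs at neighbouring times. Their median log2 difference was -1.20 at 2 d and 1.90 at 4 d. The difference between the times was not tested, since there is 1 array at each time, and both values share the shaved array. The summed intensity of the 23 measured genes was 906 at 2 d and 1998 in shaved skin.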

How the results depend on the processing

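No paired analysis was possible because each group has 1 array, and for the same reason no replicate could be left out. The 764 higher and 1002 lower genes became 2183 and 2426 at a threshold of 1.5-fold, 296 and 353 at 3-fold, and 323 and 537 with normexp. Against the 50 d array 1053 genes were higher and 623 lower. With the percentile taken over averaged probes, an alternative chosen after seeing the data, 737 were higher and 1028 lower. The median of cornified envelope genes became 1.69 with normexp. That of hair shaft keratins became 0.90 with normexp, 1.21 with no filter on dim probes and 0.94 against the 50 d array. Against the 50 d array that of interferon-stimulated genes became -0.53 and that of macrophage and monocyte markers -0.15. These 4 medians kept their direction under all alternatives run.

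A group median counted as reversed when it changed sign and was at least 0.153 in size, the spread between probes, on both sides. A named gene counted as reversed when a difference of at least 2-fold changed sign. All reversals came with the 50 d array as control. The group medians reversed were those of cholesterol synthesis (-0.26), complement (0.23), erythrocyte (-0.19), fatty acid and triglyceride synthesis (-0.52), immediate early (-0.32), lipolysis and oxidation (-0.24) and respiratory chain genes (-0.62). Medians below that size on 1 side changed sign too. They include those of collagen and fibroblast genes (-0.54 to 0.07), MHC class I (-0.73 to 0.07) and skeletal muscle markers (0.11 to -0.68). Reversed genes that changed to lower were Arntl (-0.74), Beta-s (-0.18), Cidea (-2.35), Elovl6 (-0.61), Fasn (-0.61), Hbb-b2 (-0.25), Krt28 (-0.23), Krt35 (-0.57) and Tbx1 (-0.27). Those that changed to higher were Dbp (1.38), Fpr1 (0.091), Gm129 (3.30), Gpc2 (0.74), Hlf (0.072), Lyve1 (0.19), Mmp3 (0.12), Rerg (1.28), Retnlg (0.79), Rspo2 (0.22), Speer2 (0.34) and Tap1 (0.27). Gpc2 and Rspo2 were not well above background at 2 d, so the sign of these 2 values is that of background signal and shows no direction. The causes were not tested. Of the 241 named genes, quantile normalisation and both alternative centrings moved 0 by more than the spread between probes. Normexp moved 102 and averaging the probes moved 27. The 50 d array moved 206, reversed the 21 above and left 14. The 206 include genes that changed sign from a difference below 2-fold, such as Il1b. Dim signals limit the precision: the software's own error of a log2 difference had a median of 0.206 over all measured genes and was 1.45 for Il1f6.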
